A study of Mus musculus with 6 samples.

Results

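The 10 genes described here encode regulators of the G1 phase of the cell cycle, and they were chosen by name from the 54532 genes of the count table. Of these, 5 promote the cycle (the D cyclins *Ccnd1*, *Ccnd2* and *Ccnd3* and their kinases *Cdk4* and *Cdk6*), and 5 inhibit it (*Cdkn1a*, *Cdkn1b*, *Cdkn1c*, *Cdkn2c* and *Cdkn2d*). All 10 passed the filter on low counts that left 17505 genes for testing. The mRNA of whole cerebella at postnatal day 1 (P1) was sequenced from 3 control and 3 mutant samples, as labelled. The controls were *Tox3* f/f littermates without Cre. The mutants were Nestin-cre;*Tox3* f/f animals, in which a *Nestin* promoter drives Cre recombinase in neural cells, where it recombines the floxed *Tox3* allele. Both groups carried the floxed allele, and the transgene was in all 3 mutants and none of the controls, so an effect of the transgene and one of the deletion cannot be told apart. The comparison asks how the mRNAs that drive G1 and those that end it differed between mutant and control cerebella.

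A D cyclin binds Cdk4 or Cdk6, and the complex phosphorylates the retinoblastoma protein and its relatives, which releases E2F transcription factors and lets the cell enter S phase. INK4 proteins such as p18 (*Cdkn2c*) and p19 (*Cdkn2d*) bind Cdk4 and Cdk6 directly, whereas the Cip/Kip proteins p21 (*Cdkn1a*), p27 (*Cdkn1b*) and p57 (*Cdkn1c*) bind cyclin and kinase together. In the neonatal cerebellum, granule neuron progenitors (GNPs) of the external granule layer divide in response to Sonic hedgehog, with *Ccnd1* and *Ccnd2* among the genes it maintains, and p27 is known to accumulate as these cells leave the cycle.

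Promoter windows of 250 bases before and 50 bases after a gene's start were at hand from RefSeq (GRCm38.p6) for 7 of the 10 genes (10 windows, since some genes have several starts), not for *Ccnd1*, *Ccnd2* and *Cdkn1c*. The bases before the start are printed for *Cdkn1b*, the inhibitor with the largest fall, and for *Cdk4*, the most abundant member per length. The motifs were chosen after the values of these genes were known, and both strands were searched. Capitals mark the GC box letters GGGCGG in *Cdkn1b* (chr6:134920151-134920400, plus strand) and the Myc-type E-box letters CACGTG in *Cdk4* (chr10:127063285-127063534, plus strand).
Cdkn1b: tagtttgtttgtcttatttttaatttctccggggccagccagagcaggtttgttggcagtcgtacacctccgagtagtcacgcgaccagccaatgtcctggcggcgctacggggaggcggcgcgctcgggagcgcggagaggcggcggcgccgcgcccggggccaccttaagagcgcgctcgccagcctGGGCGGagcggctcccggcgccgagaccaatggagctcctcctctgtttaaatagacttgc
Cdk4: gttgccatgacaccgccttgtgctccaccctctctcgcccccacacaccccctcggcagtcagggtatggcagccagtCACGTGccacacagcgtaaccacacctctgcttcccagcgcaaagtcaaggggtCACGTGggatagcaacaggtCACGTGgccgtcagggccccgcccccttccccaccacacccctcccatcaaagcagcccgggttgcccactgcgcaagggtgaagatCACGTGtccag

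The *Cdk4* window held 4 matches to CACGTG, a sequence found in 7.15% of the 32851 windows of the table, and the *Cdk6* window and 1 window of *Cdkn2c* held 1 each. The *Cdkn1b* window held no match to the general E-box CANNTG, of which CACGTG is a special case, while 72.3% of all windows held at least 1. Its 1 GGGCGG match is a common feature, present in 35.7% of windows. The E2F-type letters TTTNNCGC occurred in the *Cdk6* window alone among the members with a window, against 5.17% of all windows. The Gli-type letters GACCACCCA and the Atoh1-type E-box letters CAGATG occurred in none of these members' windows (0.253% and 17.2% of all windows), and CAGCTG occurred in 1 window of *Cdkn1a* (16.3% of all). A match describes letters only and is not a site at which binding was measured.

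The libraries held between 15391854 and 17178478 counts on genes, and 3 counts corresponded to between 0.173 and 0.196 CPM (counts scaled by the TMM-normalized library total). *Tox3* itself was at 64.3, 63.0 and 64.4 CPM in the control libraries and 55.3, 63.2 and 59.2 CPM in those labelled mutant. Its log2 fold change was -0.11 (SE 0.06, adjusted p = 0.252, quasi-likelihood test of edgeR, Benjamini-Hochberg adjusted, as for every adjusted p given here). The count over the whole gene is therefore no check of genotype, and all directions below rest on how the libraries were labelled. *Ddx3y*, a Y-chromosome gene, was read in control 1, mutant 1 and mutant 3 (94.5, 71.3 and 68.6 CPM) and was at 0 counts in the other libraries, so both groups held both sexes. The summed level of 6 choroid plexus markers was 128 to 196 CPM in the controls and 218, 34.0 and 767 CPM in mutant 1, 2 and 3, so the libraries labelled mutant differed in that tissue, and mutant 3 stood apart. The labels do not state that each library is 1 animal, and the p-values measure the spread between these libraries.

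Of the 10 genes, 4 were downregulated in the libraries labelled mutant (*Ccnd1*, *Ccnd2*, *Cdk6* and *Cdkn1b*) and 1 was upregulated (*Cdkn1c*). A gene was called at an adjusted p under 0.01 with a log2 fold change beyond 0.5 in size, the thresholds the study's methods give. Among all tested genes, 3.63% were called lower and 3.03% higher. The calls crossed the line between promoting and inhibiting genes. Of 5 cycle-promoting genes 3 were called lower and 0 higher, with a median log2 fold change of -0.84. Of 5 inhibitors 1 was called lower and 1 higher, with a median of -0.32. The median over all tested genes was -0.0070. For 9 of the 10 genes the control and mutant libraries did not overlap, 7 of them lower and 2 higher in the mutant, where 20.1% of all tested genes were lower and 20.4% higher without overlap. RNA from whole tissue cannot tell fewer cells of a type from less RNA per cell.

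**Figure D1:**
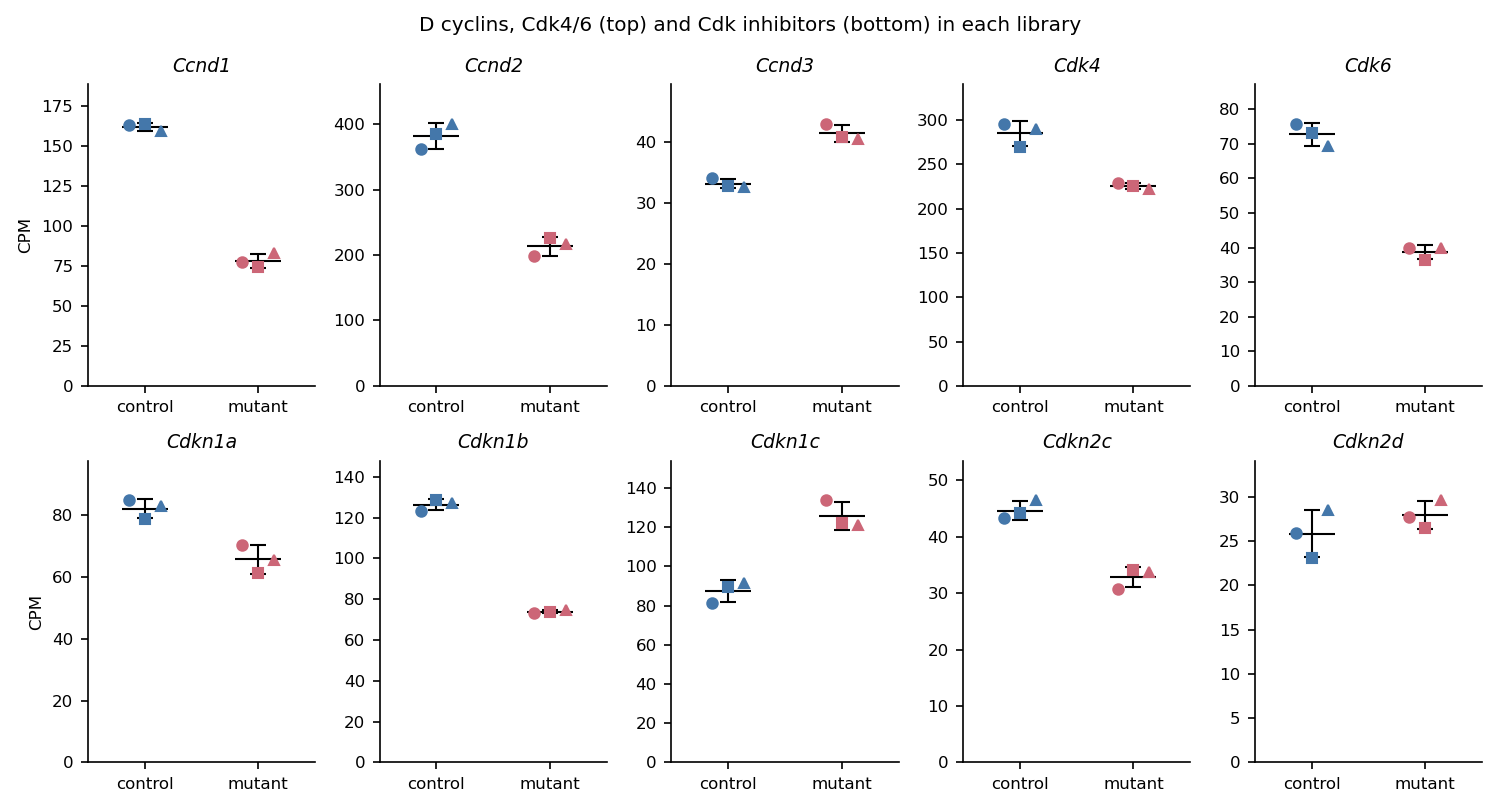
CPM of each of the 10 genes in the 3 control libraries (blue) and the 3 libraries labelled mutant (red), with circles, squares and triangles for replicates 1, 2 and 3, and with the mean and SD in black; each vertical axis starts at 0. The groups are apart in 9 panels, and only the *Cdkn2d* panel shows overlap.

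*Ccnd1*, which encodes cyclin D1, fell the most of the 10. It was at 163, 164 and 159 CPM in the control libraries and at 77.3, 74.5 and 83.0 CPM in the mutant libraries. The groups were far apart, and their means were 162 ± 2.47 and 78.3 ± 4.34 CPM (SD, n = 3 each). The fitted log2 fold change was -1.05 (SE 0.05, 95% interval -1.17 to -0.93, adjusted p = 3.01e-06), which placed *Ccnd1* at rank 20 by p among all tested genes. The gene (ENSMUSG00000070348) lies on the minus strand of chromosome 7 at 144929931 to 144939925.

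*Ccnd2*, which encodes cyclin D2, was at 362, 384 and 401 CPM in the controls and at 198, 226 and 217 CPM in the mutants. The groups were far apart, although the controls were more spread than those of *Ccnd1*. The means were 382 ± 19.6 and 213 ± 14.2 CPM (SD, n = 3 each), a log2 fold change of -0.84 (SE 0.06, 95% interval -0.98 to -0.71, adjusted p = 1.87e-05). *Ccnd2* (ENSMUSG00000000184) lies on chromosome 6 at 127125162 to 127152193, on the minus strand.

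*Ccnd3*, which encodes cyclin D3, was the D cyclin with the higher level in the mutants. It was at 34.0, 32.7 and 32.6 CPM in the controls and at 42.9, 40.7 and 40.4 CPM in the mutants, where every library was above every control. The log2 fold change was 0.32 (SE 0.07, 95% interval 0.16 to 0.48, adjusted p = 0.00861), under the fold threshold, so it was not called. *Ccnd3* (ENSMUSG00000034165) occupies 47505051 to 47599691 on the plus strand of chromosome 17.

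Of the kinases, *Cdk6* was called and *Cdk4* was not. *Cdk6* was at 75.8, 73.1 and 69.2 CPM in the controls and 40.0, 36.3 and 39.7 CPM in the mutants, with no overlap. It fell by 0.91 on the log2 scale (SE 0.07, 95% interval -1.06 to -0.76, adjusted p = 2.39e-05), from a mean of 72.7 ± 3.30 to 38.7 ± 2.05 CPM (SD, n = 3 each). *Cdk4* was at 295, 269 and 289 CPM in the controls and 229, 225 and 222 CPM in the mutants. These groups were also apart, but the log2 fold change of -0.34 (SE 0.05, 95% interval -0.45 to -0.23, adjusted p = 8.52e-04) was under the fold threshold and *Cdk4* was not called. *Cdk6* (ENSMUSG00000040274) lies on chromosome 5 at 3341485 to 3531008 and *Cdk4* (ENSMUSG00000006728) on chromosome 10 at 127063534 to 127067920, both on the plus strand.

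**Figure D2:**
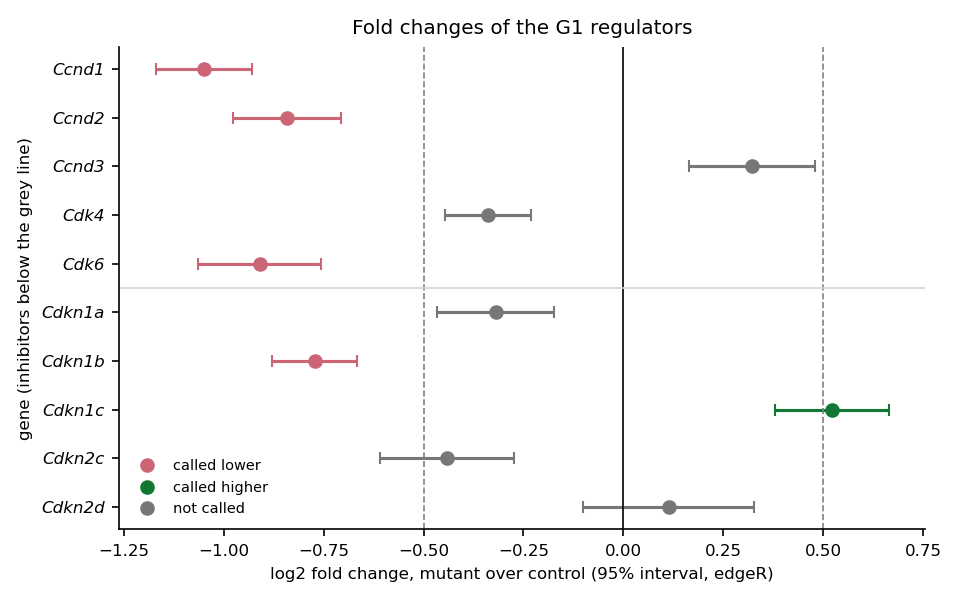
Log2 fold change of mutant over control with its 95% interval from edgeR for each gene, cycle-promoting genes above the grey line and inhibitors below it; dashed lines mark the fold threshold of 0.5 in each direction. *Ccnd1*, *Ccnd2*, *Cdk6* and *Cdkn1b* lie wholly beyond the lower threshold, and the interval of *Cdkn1c* (0.38 to 0.66) spans the upper one.

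Among the Cip/Kip inhibitors, *Cdkn1b* (p27) fell, as *Ccnd1* and *Ccnd2* did. Its control libraries were at 123, 128 and 127 CPM and its mutant libraries at 73.4, 73.8 and 74.6 CPM. These mutant values were the least spread of any member in either group, with a coefficient of variation of 0.860%. The log2 fold change was -0.77 (SE 0.05, 95% interval -0.88 to -0.67, adjusted p = 8.27e-06), and the gene ranked 40 by p, between *Ccnd1* and *Ccnd2* (rank 79). *Cdkn1b* (ENSMUSG00000003031) lies on the plus strand of chromosome 6 at 134920401 to 134925513, directly after the sequence printed above.

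*Cdkn1c* (p57) was the 1 member called higher. It was at 81.3, 89.6 and 91.6 CPM in the controls and at 134, 122 and 121 CPM in the mutants, so the lowest mutant library was well above the highest control. Its means were 87.5 ± 5.47 and 126 ± 7.05 CPM (SD, n = 3 each), and its log2 fold change was 0.52 (SE 0.06, 95% interval 0.38 to 0.66, adjusted p = 3.80e-04). This value is just past the fold threshold: without control 1 it was 0.47 and without mutant 1 it was also 0.47, and the gene was then not called. *Cdkn1c* (ENSMUSG00000037664) is on the minus strand of chromosome 7 at 143458339 to 143461050, on the same chromosome as *Ccnd1*, which moved in the opposite direction.

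*Cdkn1a* (p21, a target of p53) was at 84.8, 78.6 and 82.8 CPM in the controls and 70.4, 61.1 and 65.6 CPM in the mutants. All mutant libraries were below all controls, and the log2 fold change of -0.32 (SE 0.07, 95% interval -0.47 to -0.17, adjusted p = 0.00601) was not called because of its size. The gene (ENSMUSG00000023067) lies on chromosome 17 at 29090976 to 29100727, plus strand.

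Neither INK4 inhibitor was called. *Cdkn2c* (p18) was at 43.2, 44.1 and 46.4 CPM in the controls and 30.8, 34.0 and 33.7 CPM in the mutants, again without overlap. Its log2 fold change was -0.44 (SE 0.08, 95% interval -0.61 to -0.27, adjusted p = 0.00225), and the interval spans the fold threshold. *Cdkn2d* (p19) was at 25.9, 23.1 and 28.4 CPM in the controls and 27.7, 26.5 and 29.6 CPM in the mutants, the 1 member whose groups overlapped, with a log2 fold change of 0.11 (SE 0.10, 95% interval -0.10 to 0.33, adjusted p = 0.428). *Cdkn2c* (ENSMUSG00000028551) is on chromosome 4 at 109660876 to 109667189 and *Cdkn2d* (ENSMUSG00000096472) on chromosome 9 at 21288410 to 21291407, both on the minus strand. The other INK4 genes were scarce: *Cdkn2a* had between 1 and 4 counts per library and was not tested, and *Cdkn2b* was at 0.325 to 0.716 CPM in the controls and 0.750 to 1.37 CPM in the mutants (log2 fold change 0.95, SE 0.43, adjusted p = 0.140).

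Levels of different genes were compared only in FPKM (fragments scaled by gene length and library total), which the authors deposited. In control cerebella *Cdk4* was the highest member at 86.8 ± 4.13 FPKM (SD, n = 3, as for all FPKM means here), above 97.9% of the tested genes. *Cdkn1c* (42.5 ± 2.68) and *Ccnd2* (40.3 ± 2.08) followed with overlapping libraries, then *Ccnd1* (34.1 ± 0.519), *Cdkn1b* (27.5 ± 0.588) and *Cdkn1a* (22.9 ± 0.869 FPKM). *Cdkn2c* (16.5 ± 0.613) and *Cdkn2d* (16.3 ± 1.68 FPKM) overlapped, and *Cdk6* (5.15 ± 0.232) and *Ccnd3* (3.74 ± 0.0846 FPKM) were the lowest.

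In the mutant libraries the order of these levels changed below *Cdk4*, which was still highest at 69.0 ± 1.13 FPKM. *Cdkn1c* stood alone in second place at 61.3 ± 3.63 FPKM, and *Ccnd2* came next at 22.6 ± 1.40 FPKM. *Cdkn1a* (18.4 ± 1.39), *Cdkn2d* (17.7 ± 1.07), *Ccnd1* (16.5 ± 0.981) and *Cdkn1b* (16.2 ± 0.173 FPKM) lay so close that each overlapped the next in that order. *Cdkn2c* was at 12.2 ± 0.618 FPKM. *Ccnd3* (4.69 ± 0.168 FPKM) was above *Cdk6* (2.75 ± 0.161 FPKM), the reverse of their order in the controls. The gene lengths behind FPKM (13989 bases for *Cdk6*, 1574 for *Cdkn2d*) count all exons of a gene, so levels of long genes with short transcripts in use are understated.

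**Figure D3:**
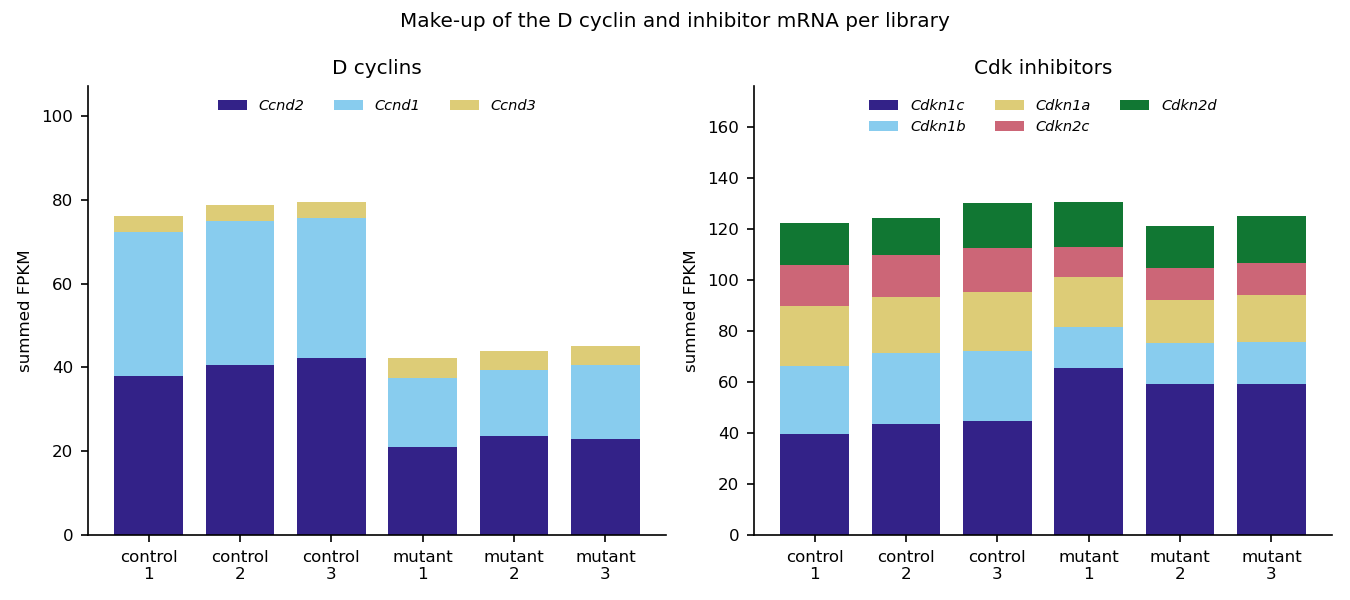
Summed FPKM of the 3 D cyclins (left) and the 5 inhibitors (right) in each library, with each gene's part in its own color; both axes start at 0. The D cyclin bars are between 76.2 and 79.4 FPKM in the controls and between 42.3 and 45.2 in the mutants, whereas the inhibitor bars span about the same range in both groups with a larger part from *Cdkn1c* in the mutants (summed CPM, not plotted, was lower in the mutants, at 317 to 336 against 359 to 376).

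The summed D cyclin level was 76.2, 78.7 and 79.4 FPKM in the controls and 42.3, 43.9 and 45.2 FPKM in the mutants, a mean change of -43.9%. *Ccnd2* made up a like share of it in both groups (49.95 to 53.2% and 49.7 to 54.0%). The share of *Ccnd1* was 42.2 to 45.0% in the controls and 35.6 to 39.0% in the mutants, and that of *Ccnd3* was 4.64 to 5.03% and 10.2 to 11.5%. Neither of these shares overlapped between the groups.

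The summed FPKM of the 5 inhibitors did not separate the groups, at 122, 124 and 130 FPKM in the controls and 130, 121 and 125 FPKM in the mutants (means 126 ± 4.23 and 126 ± 4.56, SD, n = 3 each). Their summed CPM, which is not divided by gene length and so gives the short *Cdkn1c* less weight, did, at 359 to 376 in the controls and 317 to 336 in the mutants. The make-up of the FPKM sum also differed. *Cdkn1c* supplied 32.3 to 35.0% of inhibitor FPKM in the controls and 47.3 to 50.2% in the mutants, and *Cdkn1b* supplied 21.2 to 22.5% and 12.3 to 13.2%. *Cdkn2d* had overlapping shares (11.7 to 13.7% and 13.5 to 15.0%). The ratio of summed D cyclin to summed inhibitor FPKM was 0.609 to 0.633 in the controls and 0.324 to 0.362 in the mutants. These sums and shares describe the libraries and were not tested.

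Ratios within a library do not depend on how libraries are scaled to each other, and 3 of them were tested with a two-sided exact permutation test, in which 3 libraries against 3 cannot give a p below 0.1. All 3 reached that smallest value (exact permutation p = 0.1, and 0.1 after adjustment over the 3 ratios), so none can pass 0.05. The log2 ratio of *Cdk4* to *Cdk6* CPM was 1.97 ± 0.09 in the controls and 2.54 ± 0.08 in the mutants (SD, n = 3 each), a difference of 0.57. The log2 ratio of *Ccnd1* to *Ccnd2* was -1.24 ± 0.09 and -1.45 ± 0.13, a difference of -0.21 that was -0.13 without mutant 2. For *Ccnd1* to *Cdkn1b* it was 0.36 ± 0.04 and 0.08 ± 0.07, a difference of -0.28. In each case the library values of the groups did not overlap, and *Ccnd1* was lower relative to both *Ccnd2* and *Cdkn1b* in the mutants. For *Ccnd1* to *Ccnd2* the gap was narrow beside the SDs, with control 3 at -1.332 and mutant 1 at -1.355.

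Beyond the members, 28 other genes of the G1/S pathway were examined, of which 27 were tested. Of these, 9 were downregulated, 0 were upregulated and 18 were not called, with a median log2 fold change of -0.20. Among all tested genes 3.63% were called lower and 3.03% higher. Without overlap between the groups, 15 of the 27 were lower and 2 higher, against 20.1% and 20.4% of all tested genes. E2F and DP transcription factors made up 5 of these 9 calls, out of 10 such genes (median -0.55). *E2f1*, an activator of S phase genes, went from 85.4 ± 1.76 to 37.9 ± 1.19 CPM (SD, n = 3 each), a log2 fold change of -1.17 (SE 0.06, adjusted p = 2.47e-06). The activator *E2f2* (-1.14, adjusted p = 6.32e-05), the repressor *E2f7* (-1.01, adjusted p = 2.66e-05) and *Tfdp2*, a partner of E2F proteins (-0.84, adjusted p = 2.94e-05), fell as well. The fifth gene, named after its value was seen, was the repressor *E2f8* (-0.76, adjusted p = 7.28e-04).

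**Figure D4:**
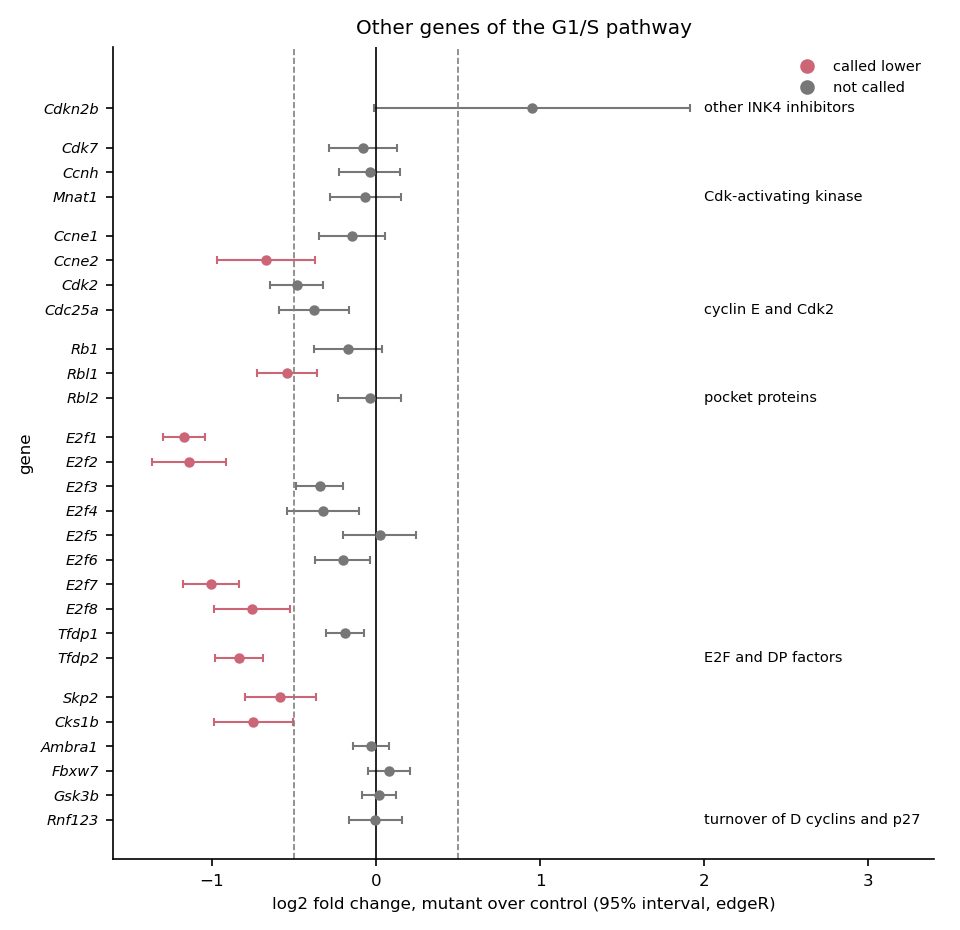
Log2 fold change of mutant over control with its 95% interval from edgeR for the 27 tested genes of the G1/S pathway outside the 10 members, grouped by role; dashed lines mark the fold threshold of 0.5. The 9 genes called lower (red) include 5 E2F and DP factors, and 0 genes were called higher.

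In the other groups of the pathway fewer genes were called. *Ccne2*, which encodes a cyclin E, fell (-0.67, SE 0.13, adjusted p = 0.00509), a call that was lost without control 1, control 2, mutant 1 or mutant 3. It was the 1 gene called of the 4 for cyclin E and Cdk2 (median -0.43). Without overlap between the groups 3 of the 4 were lower, against 20.1% of all tested genes. *Cdk2*, named after its value was seen, was 1 of them (-0.48, adjusted p = 0.00115) and was under the fold threshold. Of the 3 pocket proteins, the retinoblastoma relative *Rbl1* fell (-0.54, SE 0.08, adjusted p = 0.00120, median of the group -0.17). None of the 3 subunits of the Cdk-activating kinase, which phosphorylates Cdk4 and Cdk6, was called (median -0.07). Among 6 genes for the turnover of D cyclins and p27 (median -0.02), *Cks1b* (-0.75, adjusted p = 9.40e-04) and *Skp2* (-0.58, adjusted p = 0.00196, not called without mutant 3) fell. Their products act together in the ubiquitin ligase that marks p27 for degradation. The mRNA of p27 and those of these ligase parts were all lower, and a link between these levels was not tested.

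Among 9 genes of hedgehog and Myc input to the D cyclins, 3 fell, 1 rose and 5 were not called (median log2 fold change -0.26). The shares called over all tested genes were 3.63% lower and 3.03% higher. The hedgehog effector *Gli2* fell from a range of 88.7 to 100 CPM in the controls to 31.4 to 40.1 CPM in the mutants (-1.38, SE 0.09, adjusted p = 1.12e-05). *Mycn*, a hedgehog-responsive Myc gene of GNPs, fell by 0.62 on the log2 scale (SE 0.05, adjusted p = 4.92e-05), and *Gli1* by 0.53 (SE 0.08, adjusted p = 0.00156). The call of *Gli1* was lost without control 1 or mutant 2. The ligand gene *Shh* rose from 3.58, 4.49 and 4.24 CPM to 7.50, 5.996 and 7.66 CPM (0.78, SE 0.17, adjusted p = 0.00829), a call that was lost without control 1, control 2, control 3, mutant 1 or mutant 3. Of 14 p53 targets, which share an input with *Cdkn1a*, 13 were tested (*Gdf15* was under the filter), and 1 was called lower and 0 higher (median -0.03). Without overlap between the groups, 4 were lower and 4 higher in the mutants, against 20.1% and 20.4% of all tested genes. The gene called lower was *Pmaip1*, a gene of cell death, at 5.14 to 6.36 CPM in the controls and 1.43 to 2.09 CPM in the mutants (-1.73, SE 0.21, adjusted p = 3.63e-04).

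The tested genes whose log2 CPM followed a called member most closely over the 6 libraries, after each was centred on its own mean, were found by their root mean square (RMS) difference from it. For *Ccnd1* they were *Peli2*, *Hey1* and *Ostf1* (RMS 0.0453, 0.0465 and 0.0535 on the log2 scale). For *Ccnd2* they were *Fam53b*, *Rad54l* and *Rftn1* (0.0329, 0.0358 and 0.0474), and for *Cdk6* *Plxnb2*, *Nav2* and *Ung* (0.0364, 0.0419 and 0.0520). The closest match of all was *Lzts1* to *Cdkn1b* (0.0247), followed by *Igsf21* and *Timeless* (0.0257 and 0.0358). *Cdkn1c* was followed by *Lmna*, *Trank1* and *Pvr* (0.0449, 0.0450 and 0.0454). None of these 15 genes is a member. The measure selects genes with nearly the same fold change, and the called members differed in theirs, so this does not show whether the members varied together.

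Cell type markers differed between the groups too. The counts of called markers below stand beside 3.63% called lower and 3.03% called higher among all tested genes. Of 6 GNP markers 5 fell, with a median log2 fold change of -1.34 and a summed level of 869 to 957 CPM in the controls and 387 to 404 CPM in the mutants. *Atoh1*, the transcription factor that defines these cells, was at 481 to 501 counts in the controls and 4 to 10 counts in the mutants (-6.40, SE 0.19, adjusted p = 8.85e-08), and without it the median of the other 5 was -1.09. *Barhl1* (-2.59), *Mdga1* (-1.09) and *Barhl2* (-1.58) also fell. Of 6 granule neuron markers 5 also fell (median -0.76), with sums of 1147 to 1213 and 685 to 730 CPM, among them *Neurod1* (-1.16), *Nhlh1* (-1.78), *Rbfox3* (-0.73) and *Cntn2* (-0.79). *Ccnd1*, *Ccnd2*, *Cdk6* and *Cdkn1b* moved in the direction of both lists, and the part of either in their falls was not tested. *Ccnd3*, higher in every mutant library, did not move in that direction.

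The marker lists of several other cell types were higher, as *Cdkn1c* was. Of 8 Purkinje cell markers 5 rose (median 0.63, sums 1555 to 1681 and 2159 to 2646 CPM), *Skor2* (log2 fold change 0.78), *Car8* (0.63), *Calb1* (0.68) and *Pcp2* (0.63) among them. Of 6 oligodendrocyte lineage markers 4 rose (median 0.68, 408 to 435 and 507 to 542 CPM), among them *Sox10* (0.97), *Olig1* (0.71) and *Olig2* (0.66). *Pdgfra*, another of that list, was lower in every mutant library without being called (-0.45, adjusted p = 3.07e-04). Of 6 astroglia markers *Gdf10* (1.18) and *Aqp4* (0.64) rose (median 0.41, 3027 to 3095 and 4072 to 4350 CPM). Of 6 meninges markers *Col1a2* (0.77) and *Col1a1* (0.85) rose (median 0.44, 389 to 415 and 572 to 687 CPM). Of 5 microglia markers *C1qa* (0.59) rose (median 0.39, 67.1 to 73.3 and 87.5 to 100.02 CPM). Each of these sums was apart between the groups, no marker of these 5 lists was called lower, and the lists' part in the level of *Cdkn1c* was not tested. Of 4 GABAergic progenitor markers *Ptf1a* was called lower and none higher (median 0.24, sums 191 to 195 and 244 to 245 CPM).

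The endothelium and choroid plexus lists did not separate the groups in their sums. The 6 endothelium markers (median -0.11, 347 to 387 and 337 to 352 CPM) and the 4 tested erythroid markers (median log2 fold change 0.06) held no called gene. Of the 6 choroid plexus markers, whose sums are given above, *Otx2* fell (-1.16, adjusted p = 1.81e-05) and the median was 1.18. *Otx2* was at no more than 24.7 CPM in any mutant library. *Ttr*, of the same list, was at 181, 6.06 and 711 CPM in mutant 1, 2 and 3. *Otx2* made up most of the sum of mutant 2, and its fall is not read as a result about that tissue. *Cdkn1c* was at 121 CPM in mutant 3, which had the highest choroid plexus sum, and at 122 CPM in mutant 2, which had the lowest. *Ccnd1* (74.5, 77.3 and 83.0 CPM) and *Cdkn2d* (26.5, 27.7 and 29.6 CPM in mutant 2, 1 and 3) ran in the order of that sum among the mutants. The other members did not, and an order of 3 libraries is easily met by chance. In the controls neither gene ran in that order: *Cdkn2d* was highest (28.4 CPM) in control 3, which had the lowest control sum (128 CPM). The part of that tissue in the members' levels was not tested.

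Some members overlap a gene on the opposite strand, and whether counting used strand is not given in the sources used here, so reads from such overlaps cannot be told apart. *Ccnd1* overlaps *Oraov1*, which had 149 to 224 counts per library against at least 1143 for *Ccnd1*. *Cdk4* overlaps *Tspan31* (452 to 564 counts, against at least 3451), and *Ccnd2* overlaps *9330179D12Rik* (22 to 45 counts, against at least 3430). For *Ccnd3* the overlapping *Bysl* had 505 to 633 counts over its whole length, about as many as the 502 to 744 counts of *Ccnd3*. The overlaps span 1771, 641, 2805 and 361 bases in the order given, and only reads within them could be shared. The *Ccnd3* length behind FPKM is 8775 bases. None of these 4 partners was called.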

How the data were processed

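Total RNA of P1 cerebella was selected for poly-A mRNA and sequenced in pairs. After quality filtering, the authors aligned reads to mm10 with HISAT2 2.0.5 and deposited counts per gene from featureCounts 1.5.0-p3 (versions from the submitters' processing notes), with no normalization. The authors also deposited FPKM, computed from counts and gene length. The annotation release, strand setting and treatment of multi-mapping reads are not given in the sources used here. Columns of the authors' own comparison were not used.

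The 3 mutant and 3 control libraries were compared on the counts with edgeR 4.0.16 in R 4.3.3 (filterByExpr, TMM, glmQLFit, glmQLFTest, Benjamini-Hochberg over all 17505 tested genes, which held 99.8% of counts). Genes were called at adjusted p under 0.01 and log2 fold change beyond 0.5. Coordinates are GRCm38 as deposited. The common dispersion was 0.0105, and no 2 libraries were copies (chi-square per gene 3.63 to 10.0 within groups). The 95% intervals come from the edgeR fit and include the spread between libraries, whereas floors of 3 counts cover counting error only.

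All 10 members were named. From every other list the called genes were named, at most 4 by smallest p, with genes under the filter (2 genes are not reported here), and for each called member its 3 nearest genes. Members and lists (D cyclins, kinases, inhibitors, G1/S pathway, hedgehog, Myc and p53 inputs, cell type markers) were chosen with earlier results of these data known, and the imprinted genes and promoter motifs after seeing the members' values.

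Alternatives were DESeq2 1.42.0, other scaling and filters, limma-trend (limma 3.58.1) on log2 FPKM with 1 or 0.1 added, the replicate number as a block, the summed level of Y-chromosome genes as covariate, chromosomes X and Y left out, other thresholds and each library left out. On simulated counts with 200 changed genes for this comparison, edgeR recovered 200 with 2 false calls among 17302 genes, DESeq2 199 with 2 among 17505, and limma-trend 192 with 6 among 15983. The planted changes were larger than that of any member, and all genes were given the common dispersion. The recovery therefore does not give the sensitivity or error rate for changes near the fold threshold.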

Additional observations from a re-analysis of the deposited data

How the results depend on the processing

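Over 20 alternatives *Ccnd1*, *Ccnd2*, *Cdk6* and *Cdkn1b* were called lower in all 20, and no member's fold change turned direction in any of them. The alternatives without a fold threshold and at an adjusted p under 0.05 apply looser limits to the main fit, so they could not lose a call. Those and the test against 0.5 keep the main fold changes, so no direction could turn in them. *Cdkn1c* was called in 17. It was not called in a test against a log2 fold change of 0.5, which left 0 inhibitors called higher, nor without control 1 (0.47) or mutant 1 (0.47), so the count of inhibitors called higher ranged from 0 to 1 with 1 library left out. Without a fold threshold, *Cdkn1a* and *Cdkn2c* joined *Cdkn1b* and 3 inhibitors were called lower, and *Ccnd3* and *Cdk4* passed as well. Genes of the G1/S pathway called lower numbered 4, in place of 9, in limma-trend without a filter and in the test against 0.5, which makes a stricter demand by construction. Hedgehog, Myc and p53 inputs called lower numbered 2 in that test, in place of 4. Inputs called higher (1, *Shh*) numbered 0 with the replicate block, with limma-trend on log2(FPKM + 1), with or without a filter, or on log2(FPKM + 0.1), and in the test against 0.5; 2 at an adjusted p under 0.05 (*Shh* and *Phlda3*); and 0 to 1 with 1 library left out.

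The replicate numbers were not treated as pairing the libraries: deviations of same-numbered libraries correlated at 0.243, 0.265 and -0.163. With the replicate block, 3 cycle-promoting genes and 1 inhibitor were called lower and 1 inhibitor higher, as without it, and 5 inputs were called lower. For the 3 ratios the exact sign-flip test over 3 pairs gave p = 0.25, the smallest it allows, and the difference itself is the same by arithmetic.

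Over all genes, 635 were called lower and 530 higher, against 145 and 30 in the test against 0.5, 1268 and 1147 with no fold threshold, 397 and 285 in limma-trend on log2(FPKM + 1), 456 and 338 on log2(FPKM + 0.1), 286 and 176 on log2(FPKM + 1) without a filter, 809 and 838 at an adjusted p under 0.05, and 492 to 778 and 349 to 569 with 1 library left out. Depth limited *Cdkn2a*, which had 1 to 4 counts per library and was not tested.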

Other observations

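*Cdkn1c* is an imprinted gene, and a list of 12 imprinted growth genes was drawn up after its value was seen, of which 11 were tested (*Phlda2* was under the filter). *Igf2*, a growth factor gene, was at 15.3, 19.2 and 14.3 CPM in the controls and 32.5, 27.5 and 26.2 CPM in the mutants (log2 fold change 0.82, SE 0.13, adjusted p = 0.00134, quasi-likelihood test of edgeR, Benjamini-Hochberg adjusted). Its neighbour *H19* was at 76.0 to 101 CPM in the controls and 124 to 184 CPM in the mutants (0.71, SE 0.14, adjusted p = 0.00537). *Plagl1*, an imprinted transcription factor, fell from 102 to 121 CPM in the controls to 41.5 to 43.6 CPM in the mutants (-1.37, SE 0.07, adjusted p = 3.01e-06). In all, 2 were called higher and 1 lower, beside 3.03% and 3.63% of all tested genes, and the median of the 11 was 0.14. *Kcnq1ot1*, the antisense RNA of the imprinted domain that holds *Cdkn1c*, was at 24.7 to 26.3 and 17.1 to 24.6 CPM and was not called (-0.31, SE 0.12, adjusted p = 0.0941). The sum of the meninges markers was also higher in the mutants (572 to 687 CPM against 389 to 415), and its part in these values was not tested.

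Genes within 500 kb of each member were counted. Among all tested genes 3.63% were called lower and 3.03% higher, so a called neighbour is not read as a result about its member. Near *Ccnd1* 10 genes were tested and 0 called, and near *Cdkn1c* 17 were tested and *Cd81* rose (0.59, SE 0.05, adjusted p = 4.18e-05). Near *Cdkn1b* 15 were tested, of which *Emp1* rose and the noncoding RNA gene *Lockd* fell. *Lockd* begins 3.58 kb beyond the end of *Cdkn1b* and was at 7.42, 9.70 and 11.2 CPM in the controls and 3.81, 3.84 and 4.30 CPM in the mutants (-1.25, SE 0.18, adjusted p = 9.54e-04). Near *Ccnd2* 13 were tested and *Rad51ap1*, a DNA repair gene, fell (-0.81, SE 0.10, adjusted p = 3.61e-04). Near *Cdk4* 32 were tested and *Gli1*, 262 kb away, was the 1 called. Near *Cdk6* (13 tested), *Cdkn1a* (20 tested) and *Cdkn2d* (37 tested) 1 gene each was called lower and 0 higher. They were *1700109H08Rik* (-0.60), *Pim1* (-0.87) and *Spc24* (-0.80). Near *Ccnd3* (14 tested) and *Cdkn2c* (10 tested) 0 were called. These neighbours were chosen after the members' values were seen.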
